A study of Saccharomyces cerevisiae with 44 samples.

Results

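The 46 genes described here encode proteins that make ribosomes in the budding yeast Saccharomyces cerevisiae. They were chosen by name, as a list of assembly factors and RNA polymerase I subunits, and all 46 were among the 7127 features of the count table. By role, 8 encode proteins of small nucleolar ribonucleoprotein particles (snoRNPs) or the nucleolar protein Nsr1, 18 the small-subunit processome, 14 assembly of the large subunit and 6 subunits of RNA polymerase I. RNA sequencing measured them in cells held in G1, with or without the mating pheromone alpha-factor, in cells lacking Kar4, Ste12 or Ime4 and in wild-type (WT) cells.

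The groups in batches 1 and 2 were ∆Kar4 (strain ACY01, kar4::KanMX), ∆Ste12 (ACY02, ste12::KanMX) and WT (VM05), each with 4 libraries after alpha-factor and 4 frozen before it, at 0 h. Batch 3 held ime4 (ACY13, ime4::KanMX) and WT with 2 libraries per condition, and batch 4 held WT with 2 libraries per condition. All strains were MATa, carried the ade1, bar1, his2, trp1 and ura3 alleles, and lacked functional CLN1, CLN2 and CLN3 at their own loci. Their sole G1 cyclin of this kind came from leu2:LEU2::GAL-CLN3, a CLN3 copy driven by a galactose promoter. Per the labels' protocols, cells grew at 30 °C in galactose and then stood in glucose for 3 h, which shut off that copy and stopped them in G1, so all groups are arrested cells shortly after a change of sugar. Alpha-factor was given at 20 µM for 60 min. In batches 1 and 2 the cells without alpha-factor were frozen at the start of that hour, and in batch 4 they waited for the same 60 min. The sample titles of batch 3 give no time for its untreated cells. Pheromone and the extra hour cannot be told apart within a strain in batches 1 and 2. The same holds for batch 3 if its untreated cells were also frozen at the start. Each deletion was represented by 1 named strain.

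Library totals (M, mega) ranged over 4.25 M to 15.6 M counts for batch 1 and 8.27 M to 12.7 M for batch 2. For batch 3 they ranged over 9.90 M to 17.0 M and for batch 4 over 14.8 M to 22.6 M. In batch 3, 8 pairs of columns differed by less than the sampling noise, and each pair was counted as 1 library. The deleted genes were low in their own strains: KAR4 had 0 to 2 counts per ∆Kar4 library, STE12 had 3 to 64 per ∆Ste12 library and IME4 had 3 to 8 per ime4 library. WT libraries of the same batches held at least 228 counts of KAR4, 919 of STE12 and 29 of IME4. The a-cell genes STE2, MFA1, MFA2, STE6 and ASG7 summed to 492 to 828 CPM (counts per M counts of a library) in ∆Ste12 libraries and to 2467 to 5333 CPM in all others. The alpha-cell genes STE3, MF(ALPHA)1, MF(ALPHA)2 and SAG1 summed to 3232 to 3569 CPM in ∆Kar4 after alpha-factor and to 85.8 to 684 CPM in the other groups. The largest part of that sum in ∆Kar4 after alpha-factor was SAG1, and the alpha-cell receptor gene STE3 averaged 12.9 CPM there against 1.26 CPM in WT after alpha-factor. The part of these markers in the results below was not tested.

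Ribosomes are built in the nucleolus. RNA polymerase I transcribes the long precursor of the ribosomal RNAs, snoRNPs modify and help to cut it, the small-subunit processome folds and cleaves its first portion, and helicases, GTPases and methyltransferases assemble the large subunit around the rest. In growing yeast the genes for these factors are switched up and down together with growth conditions, and many carry 1 or both of a pair of promoter elements named PAC and RRPE. PAC is bound by the repressors Dot6 and Tod6, and RRPE by the repressor Stb3. Alpha-factor stops a cells in G1 and acts through a MAP kinase cascade on Ste12, which binds the pheromone response element (PRE), and Kar4 works with Ste12 at some promoters.

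The promoters of DBP2, NOP7 and NSR1 are shown because these genes hold both PAC and RRPE and had large declines in ∆Kar4. Each sequence runs 5′ to 3′ along the gene's strand, and holds the 250 bases before the start codon and the first 50 bases of the coding sequence, in the yeast reference genome R64 (sacCer3). Capitals mark PAC (GCGATGAG, or CTCATCGC on the opposite strand) and RRPE (GAAAAATTT, or AAATTTTTC). DBP2 lies at chrXIV:413389-413688 on the plus strand, NOP7 at chrVII:695167-695466 on the plus strand and NSR1 at chrVII:807607-807906 on the minus strand.
DBP2: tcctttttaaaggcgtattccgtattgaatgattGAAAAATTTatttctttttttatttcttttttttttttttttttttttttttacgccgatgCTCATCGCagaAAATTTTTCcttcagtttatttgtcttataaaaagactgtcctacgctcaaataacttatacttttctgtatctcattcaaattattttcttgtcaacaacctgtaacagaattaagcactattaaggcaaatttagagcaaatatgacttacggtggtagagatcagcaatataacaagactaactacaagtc
NOP7: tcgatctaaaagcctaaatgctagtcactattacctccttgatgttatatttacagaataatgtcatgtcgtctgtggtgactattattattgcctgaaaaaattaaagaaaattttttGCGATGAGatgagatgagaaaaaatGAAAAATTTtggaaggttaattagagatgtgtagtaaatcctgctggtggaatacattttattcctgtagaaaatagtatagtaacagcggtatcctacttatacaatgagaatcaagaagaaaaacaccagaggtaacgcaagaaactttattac
NSR1: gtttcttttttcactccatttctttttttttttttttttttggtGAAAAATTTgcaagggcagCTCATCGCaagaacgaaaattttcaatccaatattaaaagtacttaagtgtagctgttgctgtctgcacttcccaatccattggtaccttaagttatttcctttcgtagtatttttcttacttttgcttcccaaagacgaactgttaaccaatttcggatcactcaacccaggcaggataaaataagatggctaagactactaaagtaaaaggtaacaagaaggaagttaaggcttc

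Within these 300 bases, on either strand, PAC was found in 24 of the 46 promoters (52.2%), against 236 of 6007 nuclear protein-coding genes (3.93%). RRPE was found in 27 (58.7%) against 6.08% of all genes, and 1 or both in 40 (87.0%) against 8.69%. The PRE letters (TGAAACA) stood in 1 of the 46 (2.17%), against 7.49% of all genes. These matches describe letters in a window and not bound sites. The 6 genes with neither PAC nor RRPE were NOP10, UTP20, UTP22, DHR2, RRP9 and RPA12. By role, PAC stood in 1 of 8 snoRNP, 11 of 18 processome, 11 of 14 large-subunit assembly and 1 of 6 polymerase promoters. RRPE stood in 7 of the 8 snoRNP, 7 of the 18 processome, 9 of the 14 large-subunit assembly and 4 of the 6 polymerase promoters. Where PAC lay before the start codon (23 genes), it lay 77 to 229 bases before it, with a median of 128. Among ribosomal protein genes, PAC stood in 0 of 56 small-subunit and 1 of 81 large-subunit promoters.

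The levels of the 46 genes, added up in each library, averaged lower after alpha-factor than at 0 h in ∆Kar4, ∆Ste12 and WT, by the most in ∆Kar4 and by the least in ∆Ste12. Their summed level was 5054 ± 336 CPM after alpha-factor and 10751 ± 226 CPM at 0 h in ∆Kar4 (SD, n = 4 each). In ∆Ste12 it was 8956 ± 592 CPM after alpha-factor and 9936 ± 514 CPM at 0 h. In WT it was 6538 ± 448 CPM after alpha-factor and 9639 ± 400 CPM at 0 h. Treated and untreated libraries did not overlap in ∆Kar4 or WT, and did overlap in ∆Ste12. The library totals behind these CPM values were adjusted by edgeR's TMM scaling factors within batches 1 and 2, batch 3 or batch 4. Each is a share of the RNA sampled, and in a bulk sample fewer cells with a transcript and less of it per cell cannot be told apart.

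**Figure D1:**
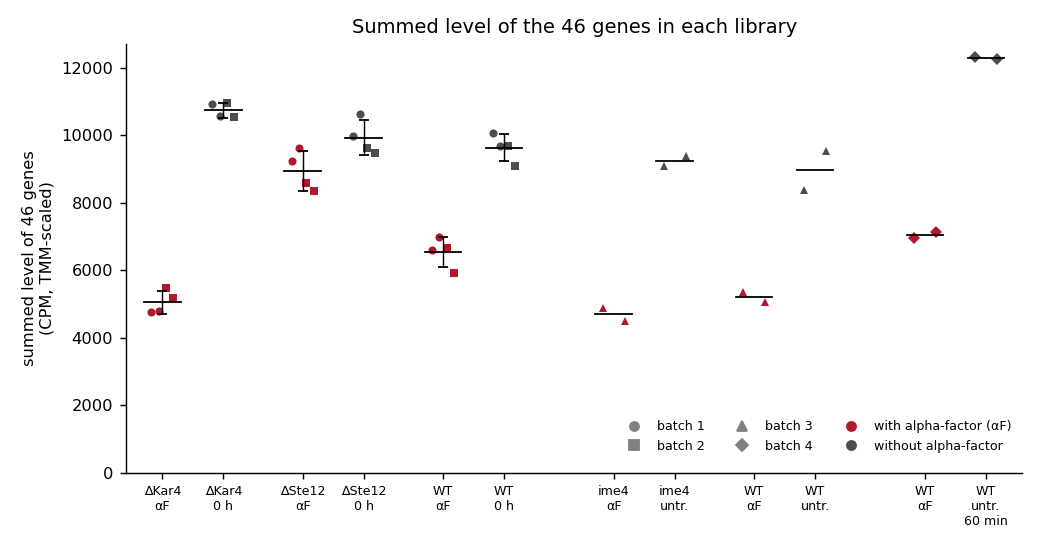
Summed level of the 46 genes in each library, in CPM on the vertical axis, by strain and condition. Points are libraries (shape: batch, red: with alpha-factor), horizontal lines are means and error bars are SD where n = 4. The ∆Kar4 libraries lie between 4774 and 5473 CPM after alpha-factor and between 10534 and 10948 CPM at 0 h, while the ∆Ste12 libraries overlap between conditions.

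Gene by gene, all 46 fell with alpha-factor in ∆Kar4, 11 fell in ∆Ste12 and 43 fell in WT, and none rose. A gene was called where edgeR's quasi-likelihood test gave a Benjamini-Hochberg adjusted p under 0.05 over all features tested, and the response of a gene is given as the log2 of its level with alpha-factor over its level without. Of all 6161 features tested, 32.8% were called lower in ∆Kar4, 14.6% in ∆Ste12 and 30.0% in WT. The median response of the 46 was -1.03 in ∆Kar4 (range -1.62 to -0.20), -0.13 in ∆Ste12 (-0.40 to 0.20) and -0.46 in WT (-0.95 to 0.01), where the median of all features lay within 0.01 of 0. In ∆Kar4, 26 genes fell at least 2-fold, and in WT none did. The 5th percentile of all features lay at -1.08 in ∆Kar4 and at -0.78 in WT. Libraries of the conditions did not overlap for 45 genes in ∆Kar4 (26.6% of all features, in the lower direction), 8 in ∆Ste12 (10.6%) and 35 in WT (21.6%). The order was almost the same throughout the list: for 45 of the 46 genes the response was most negative in ∆Kar4, intermediate in WT and least negative in ∆Ste12, UTP15 being the exception. Ribosomal protein genes, described below, had medians in the same order, and the share of all features with this order is not given here. Within batch 1 alone the medians were -1.16 in ∆Kar4, -0.14 in ∆Ste12 and -0.45 in WT, and within batch 2 alone -0.92 in ∆Kar4, -0.13 in ∆Ste12 and -0.49 in WT. Ribosomal RNA took up to 8.43% of the counts of a ∆Kar4 library after alpha-factor in batch 2 and at most 0.897% of any library in batch 1, and its part in the responses was not tested. With library totals in place of TMM the median of all features moved to -0.23 in ∆Kar4, -0.02 in ∆Ste12 and -0.17 in WT, and the 46 genes lay below it by the same amounts as with TMM. The count of 11 in ∆Ste12 was 5 with no batch term, 17 with the ∆Ste12 libraries fitted alone, and 7 without the ∆Ste12 library replicate 2 at 0 h or replicate 4 after alpha-factor. The p-values measure the spread between these libraries, since the labels do not say which came from separate cultures. Per the protocol, treated and untreated cells were portions of the same culture. Replicate numbers are not said to mark a culture, so the main fit left these libraries unpaired.

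**Figure D2:**
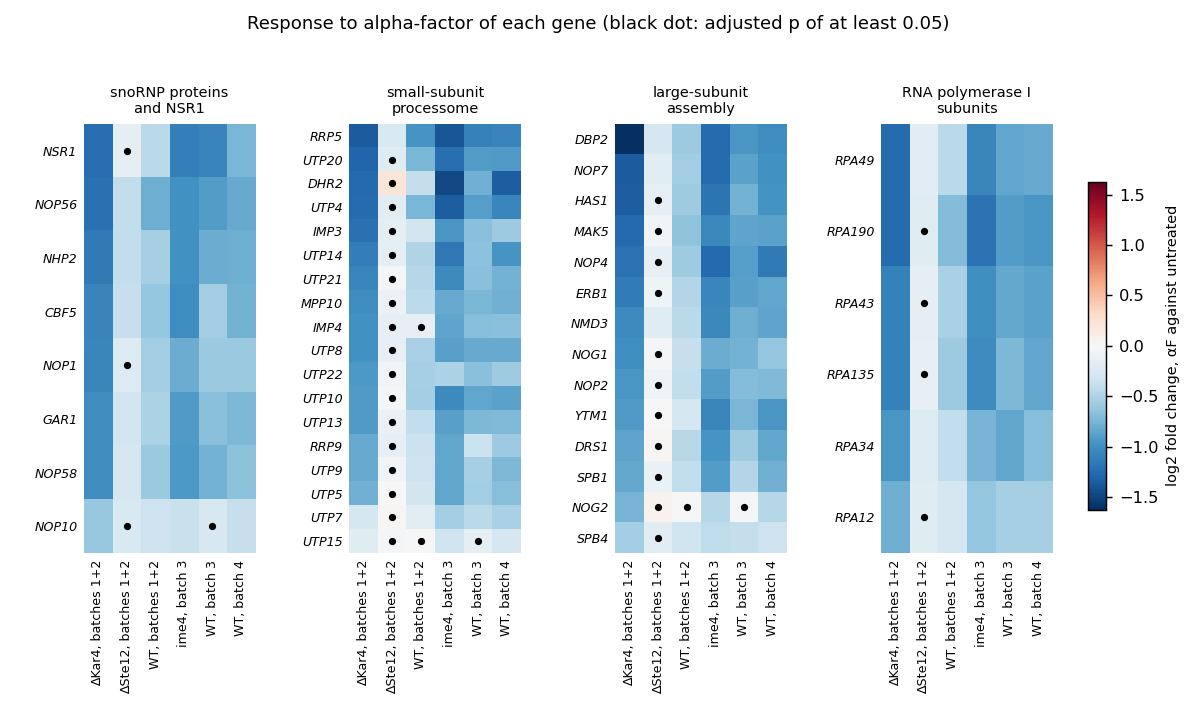
Response of each of the 46 genes to alpha-factor (log2 fold change, colour scale), with genes in rows by role and strains with their batches in columns. Blue is lower after alpha-factor, and a black dot marks an adjusted p of at least 0.05. The ∆Kar4 column has no dot, the ∆Ste12 column has 35 and the WT column of batches 1 and 2 has 3.

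The difference between the responses was tested itself. The decline was steeper in ∆Kar4 than in WT for 42 of the 46 genes, with a median difference of -0.54 (10.2% of all features were called lower in this difference). The 4 not called were UTP7, UTP15, SPB4 and NOP10, chosen for mention after their values were seen, and all 46 differences were negative. In ∆Ste12 the response was less negative than in WT for 28 genes, with a median difference of 0.33 (18.3% of all features were called higher), and for 45 genes the difference was positive. These counts were smaller within a batch: 36 for ∆Kar4 and 14 for ∆Ste12 in batch 1 alone, and 23 for ∆Kar4 and 27 for ∆Ste12 in batch 2 alone. The shares of 10.2% and 18.3% belong to the fit of both batches, and shares of all features within a batch are not given here.

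The snoRNP proteins guide and carry out RNA modification. Nop1 (fibrillarin) is the methyltransferase of box C/D particles and Nop56 and Nop58 are their core proteins, while Cbf5 is the pseudouridine synthase of H/ACA particles with Gar1, Nhp2 and Nop10, and Nsr1 is the yeast relative of nucleolin. All 8 genes fell in ∆Kar4 (median -1.07), 5 fell in ∆Ste12 (-0.30) and all 8 fell in WT (-0.55). NSR1 (YGR159C) had 128, 139.5, 181 and 153 CPM in ∆Kar4 after alpha-factor, against 326, 326, 386 and 384 CPM at 0 h. NSR1 had 295, 297, 311 and 299.6 CPM in ∆Ste12 after alpha-factor, against 316, 339.6, 343 and 340.1 CPM at 0 h. NSR1 had 269, 277, 246 and 229.7 CPM in WT after alpha-factor, against 395, 347, 351 and 295 CPM at 0 h. The treated libraries lay below the untreated ones without overlap in each of the 3 strains, by a wide margin in ∆Kar4. NSR1 fell by 1.24 in ∆Kar4 (SE 0.09, adjusted p 4.54e-11) and by 0.44 in WT (SE 0.09, adjusted p 0.000251), and its response in ∆Ste12 was not called (-0.15, adjusted p 0.199; edgeR, Benjamini-Hochberg). The response differed between ∆Kar4 and WT by -0.80 (SE 0.13, edgeR, Benjamini-Hochberg adjusted p 8.92e-05).

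NOP56 (YLR197W) was the snoRNP gene with the largest decline in WT, at -0.79 (SE 0.07, edgeR, Benjamini-Hochberg adjusted p 9.26e-10). It had 169, 164, 200.3 and 180.02 CPM in ∆Kar4 after alpha-factor, against 446, 415, 408 and 390.1 CPM at 0 h. It had 259.8, 225, 262 and 264 CPM in ∆Ste12 after alpha-factor, against 353, 339, 321 and 324 CPM at 0 h. It had 222, 217, 218 and 194 CPM in WT after alpha-factor, against 371, 389, 354 and 356 CPM at 0 h. Treated and untreated libraries were apart in every strain, and NOP56 was also the gene with the largest decline in ∆Ste12, at -0.40 (SE 0.07, edgeR, Benjamini-Hochberg adjusted p 0.000109). The other genes that fell in ∆Ste12 in this class were NHP2 (-0.40), CBF5 (-0.38), GAR1 (-0.32) and NOP58 (-0.28). These 5 were among the 11 genes called there, and the rest belonged to the other classes. NOP1 fell by 1.06 in ∆Kar4 and by 0.57 in WT, and GAR1 fell by 1.01 in ∆Kar4 and by 0.51 in WT. NOP10, whose coding sequence of 177 bases is the shortest of the class, had a response of -0.61 in ∆Kar4, -0.25 in ∆Ste12 and -0.34 in WT, the second of which was not called.

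The processome genes gave the widest range. UTP4, UTP5, UTP8, UTP9, UTP10 and UTP15 encode the UtpA complex that binds the precursor first, UTP13 and UTP21 belong to UtpB, UTP22 to UtpC, and MPP10, IMP3 and IMP4 encode a complex of their own. RRP9 encodes a protein specific to the U3 snoRNP, RRP5 a large scaffold that acts in both subunits' pathways, DHR2 a DEAH-box helicase, and UTP7, UTP14 and UTP20 further processome proteins. All 18 fell in ∆Kar4 (median -0.98), 1 fell in ∆Ste12 (RRP5; median -0.10) and 16 fell in WT (-0.41). RRP5 (YMR229C) had 267, 277, 323 and 288 CPM in ∆Kar4 after alpha-factor, against 766, 719, 732 and 722 CPM at 0 h. RRP5 had 616, 644, 554 and 545 CPM in ∆Ste12 after alpha-factor, against 698, 736, 698 and 679 CPM at 0 h. RRP5 had 333, 353, 352 and 302 CPM in WT after alpha-factor, against 679, 655, 669 and 595 CPM at 0 h. No treated library reached an untreated one in any strain, and the treated ∆Ste12 libraries lay closest to their untreated ones. RRP5 fell by 1.35 in ∆Kar4 (SE 0.07, adjusted p 7.56e-14), by 0.25 in ∆Ste12 (SE 0.07, adjusted p 0.0076) and by 0.95 in WT (SE 0.07, adjusted p 5.11e-11; edgeR, Benjamini-Hochberg), the largest decline of the 46 in WT. It also had the largest difference between ∆Ste12 and WT, at 0.70 (SE 0.10, edgeR, Benjamini-Hochberg adjusted p 5.88e-06).

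DHR2 and IMP3 were low genes whose decline was much steeper in ∆Kar4 than in WT. DHR2 (YKL078W) had 17.4, 13.9, 17.4 and 16.2 CPM in ∆Kar4 after alpha-factor, against 29.5, 39.1, 43.9 and 42.3 CPM at 0 h. DHR2 had 51.4, 56.0, 45.5 and 33.7 CPM in ∆Ste12 after alpha-factor, against 39.4, 45.8, 40.3 and 37.4 CPM at 0 h. DHR2 had 20.0, 25.6, 28.6 and 23.96 CPM in WT after alpha-factor, against 34.5, 31.6, 34.4 and 30.4 CPM at 0 h. The conditions overlapped in ∆Ste12 alone, where the response was 0.20 and not called (adjusted p 0.224). DHR2 fell by 1.26 in ∆Kar4 and by 0.39 in WT, a difference of -0.88 (SE 0.21, edgeR, Benjamini-Hochberg adjusted p 0.00335). IMP3 (YHR148W) had 14.4, 12.3, 17.98 and 16.2 CPM in ∆Kar4 after alpha-factor, against 26.6, 32.4, 40.5 and 41.2 CPM at 0 h. In WT, IMP3 had 24.3, 29.0, 30.0 and 27.2 CPM after alpha-factor and 27.3, 31.1, 37.2 and 40.6 CPM at 0 h, and these overlap. The difference between the responses was -0.91 for IMP3 (SE 0.13, adjusted p 2.07e-05) and -0.85 for its partner IMP4 (SE 0.14, adjusted p 7.85e-05; edgeR, Benjamini-Hochberg). IMP4 was 1 of the 3 genes not called in WT, at -0.13, together with UTP15 and NOG2.

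UTP15 (YMR093W) stood apart from the other UtpA genes. UTP15 had 88.3, 94.7, 122 and 110.1 CPM in ∆Kar4 after alpha-factor, against 109, 109, 138 and 121 CPM at 0 h. In WT, UTP15 had 119, 114, 137 and 118 CPM after alpha-factor, against 118, 120.1, 115 and 133 CPM at 0 h. The conditions overlapped in both strains. UTP15 had the smallest decline of the 46 in ∆Kar4, at -0.20 (SE 0.07, edgeR, Benjamini-Hochberg adjusted p 0.0154), and was not called in ∆Ste12 (-0.02) or WT (0.01, adjusted p 0.956). It is named here after its values were seen. The other 5 UtpA genes had responses of -1.25 (UTP4), -0.98 (UTP8), -0.92 (UTP10), -0.82 (UTP9) and -0.78 (UTP5) in ∆Kar4.

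**Figure D3:**
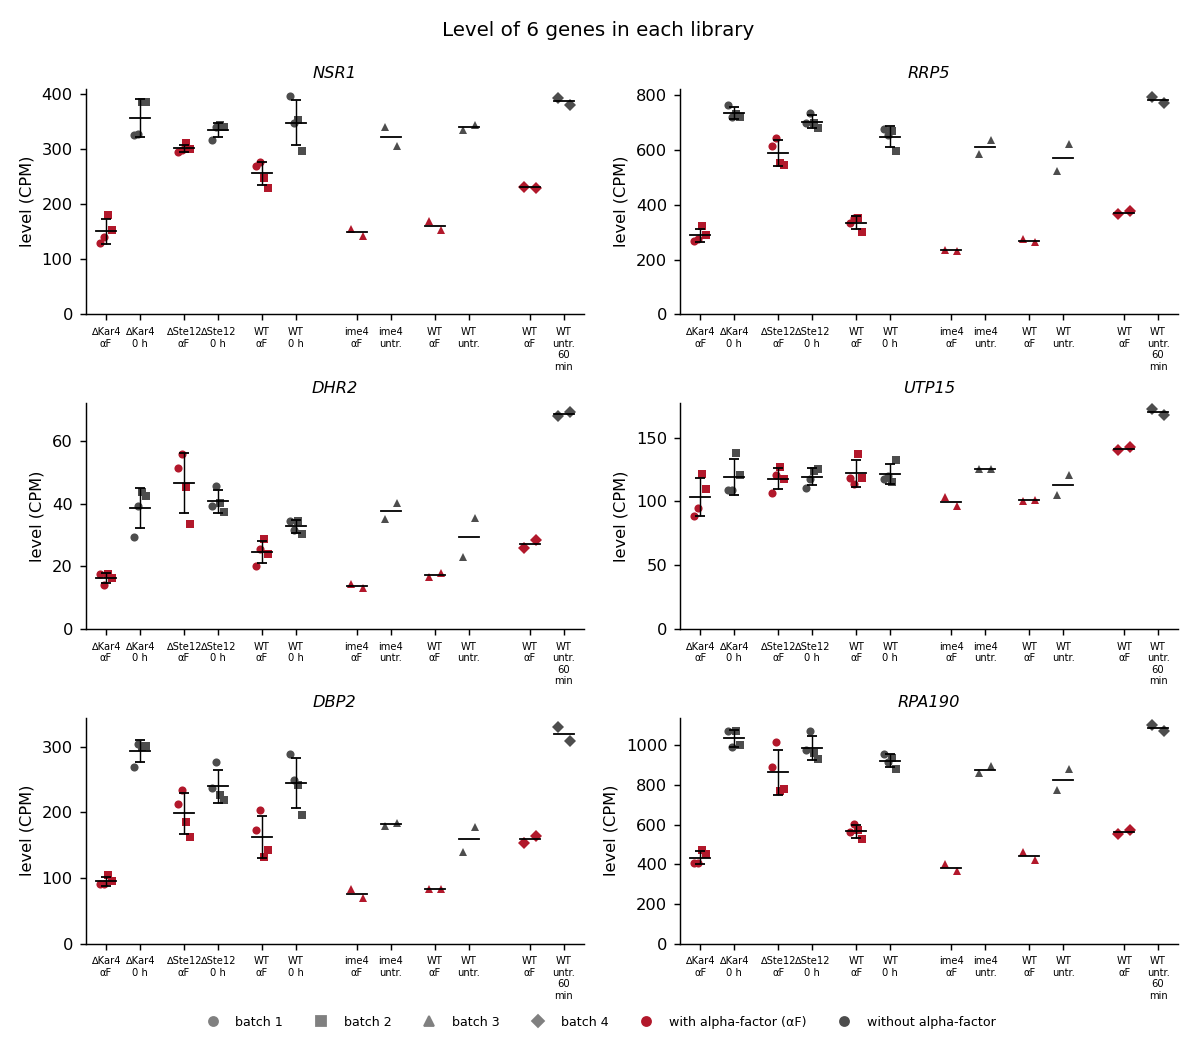
Levels of NSR1, RRP5, DHR2, UTP15, DBP2 and RPA190 in each library, in CPM on the vertical axis, by strain and condition. Points are libraries (shape: batch, red: with alpha-factor), lines are means and error bars are SD where n = 4. For RRP5 the ∆Ste12 libraries after alpha-factor lie at 545 to 644 CPM, above all ∆Kar4 and WT libraries after alpha-factor, while for UTP15 the conditions overlap in ∆Kar4, ∆Ste12 and WT of batches 1 and 2.

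The large-subunit assembly genes had the largest single decline. DBP2, DRS1, HAS1, MAK5 and SPB4 encode DEAD-box RNA helicases, NOP7, ERB1 and YTM1 a complex needed for processing of the large-subunit RNA, NOG1 and NOG2 GTPases, SPB1 and NOP2 RNA methyltransferases, NMD3 an export adapter and NOP4 an RNA-binding protein. All 14 fell in ∆Kar4 (median -1.02), 3 fell in ∆Ste12 (-0.09; DBP2, NOP7 and NMD3) and 13 fell in WT (-0.45). DBP2 (YNL112W) had 90.7, 90.0, 104 and 94.6 CPM in ∆Kar4 after alpha-factor, against 268, 303, 299 and 301 CPM at 0 h. DBP2 had 212, 234, 185 and 162 CPM in ∆Ste12 after alpha-factor, against 236, 276, 227 and 219 CPM at 0 h. DBP2 had 173, 203, 131 and 142 CPM in WT after alpha-factor, against 289, 248, 242 and 196 CPM at 0 h. The conditions were far apart in ∆Kar4 and overlapped in ∆Ste12 and WT. DBP2 fell by 1.62 in ∆Kar4 (SE 0.11, adjusted p 7.85e-12) and by 0.59 in WT (SE 0.11, adjusted p 5.78e-05; edgeR, Benjamini-Hochberg). The difference of -1.03 (SE 0.15, edgeR, Benjamini-Hochberg adjusted p 2.69e-05) was the largest between ∆Kar4 and WT among the 46.

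NOP7 (YGR103W) varied little between libraries of a group. It had 99.7, 107, 103 and 108 CPM in ∆Kar4 after alpha-factor, against 263, 268, 258 and 272 CPM at 0 h. It had 204, 202, 185 and 183 CPM in ∆Ste12 after alpha-factor, against 219, 225, 215 and 216 CPM at 0 h. It had 155, 150.2, 150.1 and 126 CPM in WT after alpha-factor, against 219.7, 209, 226 and 205 CPM at 0 h. No treated library overlapped an untreated one, and NOP7 fell by 1.35 in ∆Kar4, by 0.18 in ∆Ste12 and by 0.56 in WT. It differed between ∆Kar4 and WT by -0.78 (SE 0.08, edgeR, Benjamini-Hochberg adjusted p 1.34e-07). HAS1 fell by 1.34 in ∆Kar4, and MAK5 fell by 0.66 in WT and differed between ∆Ste12 and WT by 0.61 (SE 0.11, edgeR, Benjamini-Hochberg adjusted p 0.00017).

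NOG2 and SPB1 carry limits of position. The intron of NOG2 holds the small nucleolar RNA gene SNR191, whose reads could be counted with it, since any use of strand or intron rules is not given in the sources used here. NOG2 (YNR053C) had 45.6, 48.0, 53.4 and 45.5 CPM in ∆Kar4 after alpha-factor, against 81.4, 87.4, 81.2 and 75.8 CPM at 0 h, with no overlap. In WT, NOG2 had 75.7, 81.6, 75.9 and 59.1 CPM after alpha-factor and 87.2, 77.4, 64.6 and 63.8 CPM at 0 h, and these overlap. Its response was -0.76 in ∆Kar4 and 0.01 in WT. SPB1 (YCL054W) lies close to the deleted KAR4, with RDT1 between them. SPB1 had 71.5, 68.9, 58.4 and 63.2 CPM in ∆Kar4 after alpha-factor, against 124, 129.7, 109 and 102 CPM at 0 h. SPB1 fell by 0.83 there (SE 0.09, adjusted p 3.23e-08 by edgeR and Benjamini-Hochberg), and its response differed from that in WT by -0.42 (SE 0.13, edgeR, Benjamini-Hochberg adjusted p 0.0234).

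RNA polymerase I subunits fell in the same order of strains. RPA190 and RPA135 encode the catalytic core, RPA49 and RPA34 a heterodimer that helps initiation and elongation, RPA43 a stalk subunit and RPA12 a subunit needed for RNA cleavage by the enzyme. All 6 fell in ∆Kar4 (median -1.10), 2 fell in ∆Ste12 (-0.18; RPA34 and RPA49) and all 6 fell in WT (-0.48). RPA190 (YOR341W) had 408, 407, 471 and 449 CPM in ∆Kar4 after alpha-factor, against 1072, 994, 1072 and 999.98 CPM at 0 h. RPA190 had 892, 1014, 767 and 781 CPM in ∆Ste12 after alpha-factor, against 977, 1074, 963 and 929.5 CPM at 0 h. RPA190 had 563, 601, 571 and 526 CPM in WT after alpha-factor, against 956, 915, 936 and 881 CPM at 0 h. The conditions overlapped in ∆Ste12 and were apart in the other strains. RPA190 fell by 1.25 in ∆Kar4 (SE 0.08, adjusted p 2.32e-12) and by 0.71 in WT (SE 0.08, adjusted p 6.13e-08; edgeR, Benjamini-Hochberg). The response differed from that in WT by -0.55 in ∆Kar4 (SE 0.11, adjusted p 0.000863) and by 0.51 in ∆Ste12 (SE 0.11, adjusted p 0.000864; edgeR, Benjamini-Hochberg).

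Of the 6 subunit genes RPA49 (YNL248C) had the largest difference in response between ∆Kar4 and WT, at -0.82 (SE 0.08, edgeR, Benjamini-Hochberg adjusted p 5.17e-08). It had 93.6, 90.0, 94.8 and 90.3 CPM in ∆Kar4 after alpha-factor, against 236, 231, 204 and 212 CPM at 0 h. In WT, RPA49 had 143, 152, 129 and 117 CPM after alpha-factor, against 194, 193, 172 and 172 CPM at 0 h. The conditions did not overlap in either strain. RPA135 fell by 1.10 in ∆Kar4 and by 0.60 in WT, and its response of -0.13 in ∆Ste12 was not called. RPA43 and RPA190 are divergent neighbours, whose coding sequences start 804 bases apart, and they are the sole pair of neighbouring genes among the 46. Divided by coding length, levels in WT at 0 h were 349 CPM per kb for RPA12 and 185 CPM per kb for RPA190, and among all 46 they reached down to 15.3 CPM per kb for UTP14 and 14.8 CPM per kb for DHR2.

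Direct comparisons of strains gave the same picture at the end point. After alpha-factor, 36 of the 46 genes were lower in ∆Kar4 than in WT (median difference -0.33), where 21.1% of all features were called lower. They were led by IMP3 (-0.87), NSR1 (-0.77), DBP2 (-0.76), DHR2 (-0.62), HAS1 (-0.61) and NOG2 (-0.60). After alpha-factor, 39 genes were higher in ∆Ste12 than in WT (median 0.40), where 30.9% of all features were called higher. They were led by DHR2 (0.91), RRP5 (0.81), UTP14 (0.77), DRS1 (0.77), NOP4 (0.74) and UTP20 (0.70). Both comparisons share the same WT libraries.

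At 0 h the strains were closer. In ∆Kar4, 16 genes were higher than in WT and none was lower (median 0.19), where 5.84% of all features were called higher. In ∆Ste12, 4 were higher than in WT (UTP14, NOP4, DRS1 and UTP7; median 0.06), where 10.6% of all features were called higher. UTP14 (YML093W) led both, at 0.57 in ∆Kar4 (SE 0.10, adjusted p 0.000822) and 0.43 in ∆Ste12 (SE 0.09, adjusted p 0.00212; edgeR, Benjamini-Hochberg). UTP14 had 64.1, 71.0, 56.5 and 59.1 CPM in ∆Kar4 at 0 h, 62.6, 70.9, 51.0 and 44.6 CPM in ∆Ste12 and 39.2, 42.2, 42.0 and 41.9 CPM in WT. No WT library reached the lowest library of either deletion strain. SPB1 was 0.28 higher in ∆Kar4 than in WT at 0 h (SE 0.09, edgeR, Benjamini-Hochberg adjusted p 0.0412). In batch 1 alone 8 genes were called higher in ∆Kar4 at 0 h and in batch 2 alone 4, with medians of 0.15 and 0.21, and the count was 6 without ∆Kar4 replicate 2, 9 without WT replicate 1 and 8 without WT replicate 2. For ∆Ste12 at 0 h the count was 5 in batch 1 alone, with 2 lower, and 0 in batch 2 alone, and it was 1 or 2 without WT replicate 1, 2 or 4 or ∆Ste12 replicate 2 or 3. Shares of all features called in these smaller fits are not given here.

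In batch 3, all 46 genes fell with alpha-factor in ime4 (median -0.97) and 43 fell in WT (median -0.74), where 27.9% of all features were called lower in ime4 and 27.7% in WT. In ime4, 21 fell at least 2-fold, and in WT 2 did. The 5th percentile of all features lay at -0.98 in ime4 and at -0.87 in WT. The summed level was 4880 and 4511 CPM after alpha-factor and 9105 and 9405 CPM untreated in ime4, and 5349 and 5062 CPM after alpha-factor and 8375 and 9549 CPM untreated in WT. The treated libraries of both strains lay well below the untreated ones, and those of ime4 below those of WT. No gene of the 46 differed between ime4 and WT by edgeR's quasi-likelihood test: 0 were called untreated, after alpha-factor or in the response difference. At an unadjusted p under 0.05 there were 3 untreated, 12 after alpha-factor and 9 in the response difference. DESeq2 called 0 of the 46 in each of the 3, while edgeR with only the groups compared called 8 lower in ime4 after alpha-factor. The near-identical columns counted as separate replicates gave 6 higher and 1 lower untreated, 21 lower after alpha-factor and 13 lower in the response difference. Of all features, 0.0325% were called in either direction untreated, 0.227% after alpha-factor and 0.0162% in the response difference, with 2 libraries per group. These shares belong to the adjusted calls of the main fit. Shares at the unadjusted cutoff and in the other fits are not given here, so those counts are not read as a result about the 46. The median response difference of the 46 was -0.23. The largest declines in ime4 were those of DHR2 (-1.46), RRP5 (-1.39) and UTP4 (-1.34), and in WT those of RRP5 (-1.09) and NSR1 (-1.08).

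In batch 4, whose untreated cells waited for 60 min, all 46 genes fell in WT (median -0.78), where 28.9% of all features were called lower. Of the 46, 5 fell at least 2-fold, and the 5th percentile of all features lay at -0.87. The summed level was 6956 and 7127 CPM after alpha-factor and 12321 and 12274 CPM untreated. Treated and untreated libraries did not overlap for any of the 46, as for 39.9% of all features in that direction. DHR2 had 25.7 and 28.3 CPM after alpha-factor, against 68.0 and 69.2 CPM untreated, and fell by 1.34 (SE 0.08, adjusted p 2.81e-06 by edgeR and Benjamini-Hochberg). NOP4 (-1.15), RRP5 (-1.07), UTP4 (-1.05), DBP2 (-1.01) and NOP7 (-0.99) followed. All 46 responses were more negative in batch 4 than in WT of batches 1 and 2, and 15 of these differences were called (median -0.32), where 7.69% of all features were called lower. With library totals in place of TMM, 41 of the 46 were more negative and 3 were called, where the median of all features was 0.03. The 15 comprised 8 of 14 large-subunit genes, 5 of 18 processome genes, 2 of 6 polymerase genes and no snoRNP gene. They were led by DHR2 (-0.96), YTM1 (-0.66) and NOP4 (-0.59), and the count was 3 without replicate 1 after alpha-factor or replicate 2 untreated of batch 4, 9 without replicate 2 of WT at 0 h and 8 without replicate 3 of WT after alpha-factor in batches 1 and 2. Batch and kind of control cannot be told apart in this comparison.

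Over the 46 genes, the responses of WT in batches 3 and 4 ran alongside that of WT in batches 1 and 2, with Pearson's r of 0.74 and 0.62. The ∆Kar4 response ran alongside that of WT at r = 0.71, and the ∆Ste12 response at r = 0.51. The ime4 response ran alongside that of WT of its own batch at r = 0.78 and, across batches, alongside that of ∆Kar4 at r = 0.85. Between ∆Kar4 and WT of batch 4, r was 0.76. These are descriptions across 46 genes, which are not independent, with no library shared between the responses compared. The libraries of batches 1 and 2 share their batches, as do ime4 and WT of batch 3.

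Responses were also set out by promoter motif. In ∆Kar4 the median response was -1.01 for the 13 genes with PAC alone, -1.06 for the 11 with both, -1.07 for the 16 with RRPE alone and -0.87 for the 6 with neither. In ∆Ste12 the median was -0.10 with PAC alone, -0.13 with both, -0.21 with RRPE alone and -0.16 with neither. In WT it was -0.44 with PAC alone, -0.46 with both, -0.55 with RRPE alone and -0.37 with neither. The ranges of the classes overlapped in every strain. The 6 genes with neither motif had responses in ∆Kar4 of -1.28 (UTP20), -1.26 (DHR2), -0.93 (UTP22), -0.82 (RRP9), -0.79 (RPA12) and -0.61 (NOP10).

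**Figure D4:**
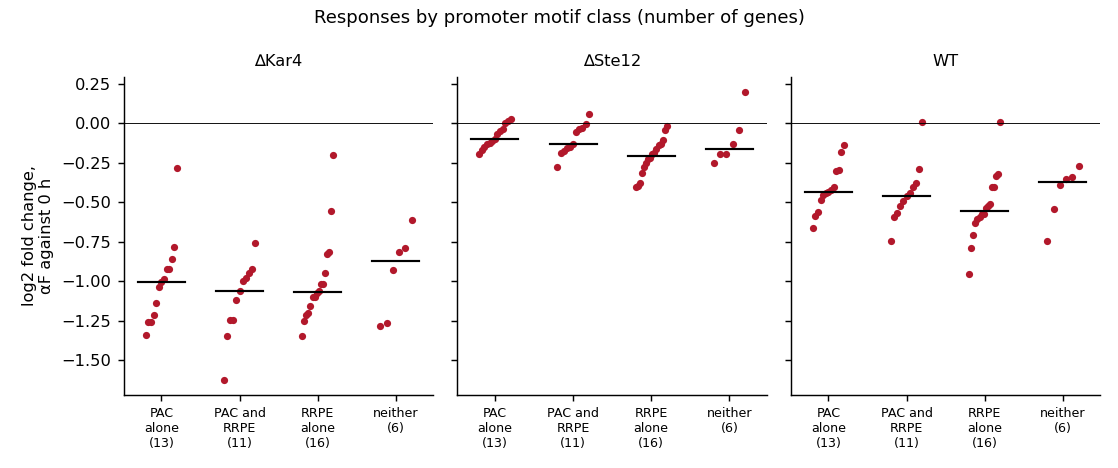
Response to alpha-factor (log2 fold change against 0 h, vertical axis) of the 46 genes in ∆Kar4, ∆Ste12 and WT of batches 1 and 2, by the motifs found in their promoters. Points are genes and lines are medians. In each strain the classes overlap, with medians of -1.07 to -0.87 in ∆Kar4.

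Other processome and large-subunit assembly genes fell in ∆Kar4 and mostly in WT. Of 23 further processome genes, all fell in ∆Kar4, 4 in ∆Ste12 and 19 in WT, with KRR1 (-1.40) and ROK1 (-1.37) leading in ∆Kar4 and ESF1 (-0.87) and KRR1 (-0.83) in WT. Of 23 further large-subunit assembly genes, all fell in ∆Kar4, 3 in ∆Ste12 and 17 in WT, with RRP1 (-1.49) and MAK21 (-1.38) leading in ∆Kar4 and MAK21 (-0.79) and MDN1 (-0.66) in WT. The response difference from WT was called negative in ∆Kar4 for 17 of the processome genes and 20 of the large-subunit genes. In ∆Ste12 the 4 processome genes were 17.4% of their list and the 3 large-subunit genes 13% of theirs, against 14.6% of all features. The 10 genes for RNA polymerase I initiation and RPA14 had medians near those of all features or above them: 3 were called lower and 1 higher in ∆Kar4 (median 0.04), 0 lower and 2 higher in ∆Ste12 (median 0.17), and 1 lower and 3 higher in WT (median 0.16). Of 13 genes for RNA polymerase III subunits, 12 fell in ∆Kar4, 3 in ∆Ste12 and 6 in WT. RPC40, whose protein is shared by polymerases I and III, fell by 1.01 in ∆Kar4.

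Ribosomal protein genes, the products that these factors assemble, numbered 137, and many are paralog pairs that share reads. Of these, 134 fell in ∆Kar4 (median -0.98), 93 in ∆Ste12 (-0.35) and 130 in WT (-0.68). In ∆Ste12, 67.9% of ribosomal protein genes and 11 of the 46 assembly and polymerase genes were thus called. The response difference between ∆Kar4 and WT was called negative for 22 of the 137 (median -0.30), and for 42 of the 46. In batch 4 their median response was -0.43, and its difference from WT in batches 1 and 2 had a median of 0.26, opposite in sign to the -0.32 of the 46. For that difference, 0 of the 137 were called higher and 2 lower, against 0 higher and 15 lower of the 46. The difference between the 2 lists was not tested.

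**Figure D5:**
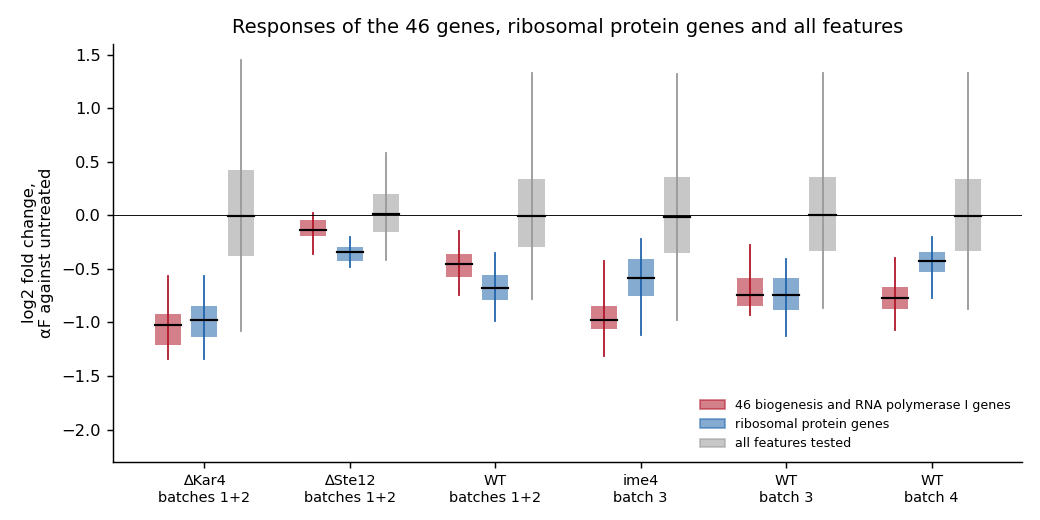
Response to alpha-factor (log2 fold change, vertical axis) of the 46 genes, the 137 ribosomal protein genes and all features tested, by strain and batch. Black lines are medians, boxes span the quartiles and thin lines the 5th to 95th percentiles. The 46 genes have medians of -1.03 in ∆Kar4 and -0.13 in ∆Ste12, against -0.98 and -0.35 for ribosomal protein genes.

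Genes for regulators did not move as 1 group. SCH9, a growth-promoting kinase, had 228 ± 28.3 CPM in ∆Kar4 after alpha-factor and 243 ± 17.2 CPM at 0 h, and 445 ± 13.1 CPM in WT after alpha-factor and 267 ± 8.39 CPM at 0 h (SD, n = 4 each). SCH9 thus rose by 0.74 in WT and its response was -0.09, not called, in ∆Kar4, a difference of -0.83 (SE 0.10, edgeR, Benjamini-Hochberg adjusted p 1.13e-06). In ∆Ste12 its response was 0.06, not called, and the difference from WT was -0.67. HMO1, an HMG-box protein found at ribosomal DNA, rose by 1.01 in ∆Kar4 and by 1.37 in WT, and its response of 0.18 in ∆Ste12 was not called. HMO1 had 49.7 ± 2.36 CPM in ∆Kar4, 17.9 ± 4.29 CPM in ∆Ste12 and 54.1 ± 8.17 CPM in WT after alpha-factor (SD, n = 4 each). RRN11, part of the core factor of RNA polymerase I initiation, rose by 1.08 in WT, and its response differed by -0.94 in ∆Kar4 and by -0.69 in ∆Ste12. RRN3, the initiation factor that joins the polymerase to the promoter, fell by 0.36 in ∆Kar4, and its response differed from that in WT by -0.65. STB3, which binds RRPE, rose by 0.52 in ∆Kar4 and by 0.42 in WT, and SFP1, an activator of these genes, rose by 0.50 in ∆Kar4 and by 0.23 in WT. DOT6, which binds PAC, fell by 0.45 in ∆Kar4 and by 0.35 in WT, and its relative TOD6 rose by 0.35 in ∆Ste12 and 0.41 in WT. MAF1, a repressor of RNA polymerase III, fell by 0.47 in ∆Kar4, by 0.44 in ∆Ste12 and by 0.30 in WT.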

How the data were processed

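Expected counts per feature were used as the authors deposited them, for 44 samples. Per the submitters' processing notes, STAR, featureCounts and the sacCer3 build were used. Versions, settings, the annotation file and strand handling are not given in the sources used here. Of the values 24.5% were whole, all were rounded, and 6047 of 7127 identifiers matched the R64 annotation, which gave names, neighbours and promoter sequences. Each of 8 near-identical column pairs of batch 3 (chi-square per degree of freedom 0.444 to 0.701, against 5.29 to 73.2 for 30 other pairs) entered as its mean, which left 36 libraries.

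Counts were tested in edgeR 4.0.16 (R 4.3.3, limma 3.58.1) with filterByExpr (minimum count 10, minimum total 15), TMM scaling, glmQLFit and glmQLFTest, and Benjamini-Hochberg adjustment over all features tested. The 24 libraries of batches 1 and 2 were fitted with batch as a term, the 8 of batch 3 and the 4 of batch 4 each alone, and all 36 for batch 4 against batches 1 and 2. The script was tested on simulated data. Test results are named per comparison for the 6 genes with the largest change in each direction and, where called, for NSR1, NOP1, GAR1, UTP10, NOP7, RPA190 and RPA135, for SPB1 in ∆Kar4, for regulators and for 2 genes of each other list. Not every called result of a regulator is given, and those of CRF1, IFH1 and FHL1 are left out. Others were chosen after their values were seen. The members and lists were chosen with earlier results of these data known.

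Alternatives were DESeq2 1.42.0, other scaling, filtering and features, single batches, left-out libraries and a replicate block. The sequence of 1 promoter is not reported here.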

Additional observations from a re-analysis of the deposited data

Results flagged for a closer look

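Picked genes and the summed level were each checked in every group of 4 libraries, which made 96 checks. In 3 of these checks, 1 library had a value far from the others, where chance gives about 1 in 20. The checks reuse the same 24 libraries and are not independent. DBP2 had 268 CPM in ∆Kar4 replicate 1 at 0 h, below the other 3 libraries. NSR1 had 316 CPM in ∆Ste12 replicate 1 at 0 h, and UTP14 had 39.2 CPM in WT replicate 1 at 0 h, each the lowest of its 4 libraries. For UTP14 the other WT libraries at 0 h lay close by, at 41.9 to 42.2 CPM.

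Responses to alpha-factor that differed between groups by edgeR's test of the difference are given as log2 differences. Between ∆Kar4 and WT, the difference was -1.03 for DBP2, -0.91 for IMP3, -0.88 for DHR2, -0.85 for IMP4, -0.82 for RPA49, -0.80 for NSR1 and -0.78 for NOP7. It was -0.55 for RPA190, -0.51 for both RPA135 and GAR1, -0.49 for NOP1, -0.42 for SPB1 and -0.36 for UTP10. Of the regulator and initiation genes, it was -0.94 for RRN11, -0.83 for SCH9 and -0.65 for RRN3.

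Between ∆Ste12 and WT, the difference was 0.70 for RRP5, 0.61 for MAK5, 0.59 for DHR2, 0.56 for UTP4, 0.55 for UTP20 and 0.52 for UTP10. It was 0.51 for RPA190, 0.47 for RPA135, 0.39 for NOP7 and 0.34 for NOP1. Of the regulator and initiation genes, it was 0.36 for RRN7, 0.23 for DOT6, -0.32 for STB3, -0.67 for SCH9, -0.69 for RRN11 and -1.20 for HMO1.

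Between WT of batch 4 and WT of batches 1 and 2, the difference was -0.96 for DHR2, -0.66 for YTM1, -0.59 for NOP4, -0.55 for IMP4, -0.48 for NOG2 and -0.43 for NOP7. Of the regulator and initiation genes, it was 0.62 for MAF1, 0.32 for STB3, -0.61 for RRN3, -0.64 for TOD6 and -0.71 for RRN11.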

How the results depend on the processing

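Of 132 results for named members, 102 kept their direction and side of the threshold under every alternative run. Leaving out each library in turn gave counts of 45 to 46 genes lower in ∆Kar4, 7 to 12 in ∆Ste12, 41 to 43 in WT, 44 to 46 in ime4, 38 to 44 in WT of batch 3 and 45 to 46 in WT of batch 4. It gave 38 to 42 for the difference of ∆Kar4 from WT, 22 to 31 for that of ∆Ste12, 30 to 37 genes lower in ∆Kar4 and 32 to 39 higher in ∆Ste12 after alpha-factor, 6 to 14 higher in ∆Kar4 and 1 to 4 higher in ∆Ste12 at 0 h, and 3 to 20 for batch 4 against batches 1 and 2. The 11 genes in ∆Ste12 were 5 with no batch term and 17 with only the groups compared. The 16 genes higher in ∆Kar4 at 0 h were 8 with library totals, 3 with no batch term, 8 in batch 1 and 4 in batch 2. The 4 in ∆Ste12 at 0 h were 26 with library totals, which moved the median of all features to 0.21, 1 with no batch term, and 0 in batch 2. The 36 in ∆Kar4 after alpha-factor were 20 in batch 2, the 42 of the difference from WT 23 in batch 2, the 28 of ∆Ste12 14 in batch 1, and the 15 of batch 4 3 with library totals. Genes lower in ∆Ste12 than in WT numbered 2 at 0 h and 2 after alpha-factor in batch 1. For ime4 against WT, the near-identical columns as separate replicates gave 6 genes higher and 1 lower untreated, 21 lower after alpha-factor and 13 lower in the difference, where 0 were called otherwise, and only the groups compared gave 8 after alpha-factor. With library totals, STB3 (0.025) and MAF1 (0.14) turned from lower to higher in ∆Ste12 against WT after alpha-factor, where the median of all features moved to 0.36. The cause of these shifts was not tested, and shares of all features called under these alternatives are not given here.

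Replicate numbers are not said to pair libraries, and untreated and treated libraries of 1 strain and number correlated between -0.274 and 0.422 (6 of 9 over 0.1). With replicate number as a block in place of batch, 46 genes fell in ∆Kar4, 11 in ∆Ste12 and 43 in WT, 42 in ∆Kar4 and 28 in ∆Ste12 differed from WT in response, and 15 in ∆Kar4 and 4 in ∆Ste12 were higher than in WT at 0 h. The block gave 46 in ime4, 43 in WT of batch 3 and 46 in WT of batch 4. The comparison of ime4 with WT rests on 2 libraries per group.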
